A study of Mus musculus with 9 samples.

Results

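The subject is the binding of the mineralocorticoid receptor (MR) to chromatin after corticosterone (CORT) was washed out, set against its binding while CORT was present. The members were the 14608 MR peaks found after CORT, of 14638 in the list, once 30 peaks in the coding exons of the receptor genes *Nr3c1* and *Nr3c2* had been left out, since the transfected plasmids carry those sequences too. A CORT peak was called kept when an MR peak found after washout overlapped it by 1 bp or more, and lost otherwise. By this rule 3567 MR peaks were kept (24.4% of all MR CORT peaks, 95% Wilson interval 23.7% to 25.1%) and 11041 were lost. The share depended on the thresholds of the lists, as it was 14.7% when only washout peaks with a −log10 q of at least 5 counted and 36.7% among CORT peaks that passed this threshold. The washout list itself held 4855 peaks outside those exons.

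N2A cells, a mouse neuroblastoma line, were transiently transfected with mCherry-MR and EGFP-GR together, so every group carried both tagged receptors, expressed from plasmids. The cells have no MR of their own and a low activity of their own glucocorticoid receptor (GR). The series used ChIP-nexus, in which λ-exonuclease trims immunoprecipitated DNA up to the crosslinked protein, after vehicle for 20 minutes, after 100 nM CORT for 20 minutes (CORT), and after 100 nM CORT for 20 minutes, washing and 40 minutes more without CORT (washout). The study describes rat receptors and the deposited description mouse receptors, which the peak lists cannot settle. Each of the 3 treatments had 3 replicates per receptor, which the authors combined before they called peaks, so that there is 1 MR list per treatment.

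With the replicates combined, neither their spread nor a p-value is reported. Each interval below treats a peak as the unit, covers counting error only, and compares these libraries, not replicated treatments. Neighboring peaks are not independent, so the intervals are too narrow. Neither read counts nor depths are in the lists. A peak that was lost may have lost MR or may have fallen under the threshold of the washout list, and these cannot be told apart. The paper called far fewer MR sites in single CORT replicates, and reproducibly across them, than the combined list holds. A lost peak may therefore also be one that the CORT replicates did not reproduce, which was not tested. To hold peak strength in view, CORT peaks were split into 10 bands by the −log10 p that MACS2 gave them against input. Odds ratios were taken within bands, and many shares have the share that their bands alone would give beside them. Other shares, medians and distances pool all bands unless a band is named, so they are not matched for strength.

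MR and GR are nuclear receptors for the same hormone, and MR binds CORT with the higher affinity. With hormone bound, both enter the nucleus and recognize the glucocorticoid response element (GRE), a pair of inverted copies of the hexamer AGAACA with 3 bases between them, usually occupied by a receptor dimer. They can also sit on DNA through other proteins or through each other. In the brain and in neuroblasts they regulate genes of the stress response, of hormone feedback and of neuronal signaling.

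The sites that follow show what lay under the peaks on which the comparison turns. Each is the best match to the GRE within 50 bp of the summit, the highest point of a peak, read from GRCm38 (mm10) on the forward strand, 5′ to 3′, with the bases that match the GRE in capitals. These first lines are the sites with at most 3 mismatches at the strongest peaks that were kept.
*Gm20388* intron, chr8:123786468-123786482: AGgACAgaacGTTCT
*Pmm1* intron, chr15:81960317-81960331: gGAACgccgcGTTCT
intergenic, chr10:128779546-128779560: gGAACAgacTGTgCc
*Ddc* intron, chr11:11844623-11844637: AGgACAttcaGTcCT
The next lines are the sites with at most 3 mismatches at the strongest lost peaks that had one, which left out 4 of the 5 strongest lost peaks, whose best match had 4 or 5 mismatches.
near the *Lcn2* TSS, chr2:32388276-32388290: AGgACAcccTGTTCT
*Prag1*, chr8:36122122-36122136: AGAgCtgtgTGTTCa
intergenic, chr2:166730693-166730707: AGAAgAtccTGTgCT
intergenic, chr11:117881893-117881907: AGAACAgccTGcTCc
Of the 5 strongest kept peaks, 3 had a site with 2 or 3 mismatches and the others had 4. The *Lcn2* site had 1 mismatch, and the 4 sites of kept peaks printed here had 2 or 3. The last lines are GREs without a mismatch, at the *Fkbp5* intron and at the strongest kept and lost peaks that held one.
*Fkbp5* intron, kept, chr17:28420321-28420335: AGAACAcccTGTTCT
*P4ha2* intron, kept, chr11:54113185-54113199: AGAACAggcTGTTCT
intergenic, kept, chr10:59974273-59974287: AGAACAcaaTGTTCT
*Fndc7* UTR, lost, chr3:108855171-108855185: AGAACAgccTGTTCT
*Rbfox2* intron, lost, chr15:77243166-77243180: AGAACAggaTGTTCT
These differed from each other only in the 3 bases between the hexamers. This last set was chosen after the values had been seen.

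Strong MR peaks were mostly kept and weak ones mostly lost. In the weakest band, with a −log10 p of 4.56 to 6.28, 154 of 1874 peaks were kept (8.22%). The middle of the range kept 14.7% in band 5 and 23.0% in each of bands 6 and 7. Band 8 kept 31.5%, band 9 kept 48.7%, and the strongest band, with a −log10 p of 16.5 to 60.2, kept 1055 of 1366 peaks (77.2%, 74.9% to 79.4%). The rise was not even from band to band, since band 2 kept 6.30% and band 4 kept 10.6%, each less than the band before it. Among the 100 strongest peaks 95 were kept, among the 500 strongest 467, and among the 1000 strongest 836. The median −log10 p was 13.3 for kept peaks and 8.60 for lost ones. A −log10 p grows with depth, so it ranked peaks within a list and was not compared as an amount of binding between treatments.

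**Figure D1:**
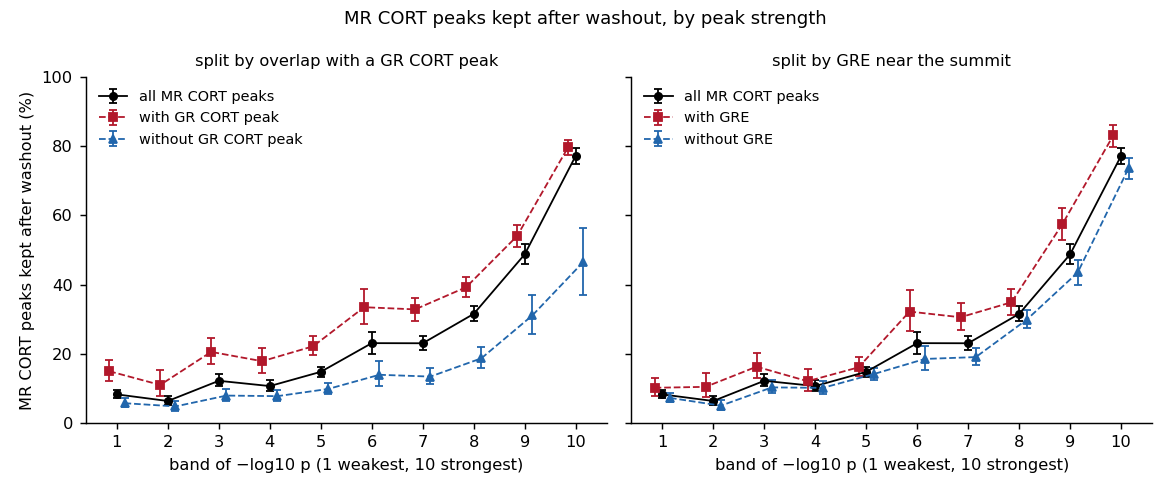
Percent of MR CORT peaks kept after washout in 10 bands of −log10 p (x axis, 1 weakest), for all peaks (black), and split by overlap with a GR CORT peak (left) or by a GRE near the summit (right), with 95% Wilson intervals as bars. The share of all peaks rises from 8.22% to 77.2%, and peaks with a GR CORT peak lie above those without one in every band.

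The rule allowed an overlap of a single base, but few calls turned on the edge. Kept peaks shared a median of 61 bp with a washout peak, 54 of them shared under 10 bp, and 7 shared exactly 1 bp. Just outside the rule, 50 lost peaks had a washout peak less than 10 bp away. Most kept peaks (3400) overlapped 1 washout peak, while 158 overlapped 2 and 9 overlapped 3.

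MR peaks at which GR was also found while CORT was present were kept more often than MR peaks without GR. Of the 6934 MR peaks that overlapped a GR CORT peak, 39.8% (38.6% to 40.9%) were kept, against 10.5% (9.87% to 11.2%) of the 7674 that did not. Peaks with GR were stronger, and the shares of their bands alone would give 33.2% and 16.5%. Within bands the odds of being kept were 2.88 times as high with GR as without (Mantel-Haenszel odds ratio, 2.62 to 3.17), and higher in 10 of 10 bands. In band 5, 22.1% of peaks with GR and 9.81% of peaks without were kept. In band 10 the shares were 79.7% and 46.5%, the second from 101 peaks. The GR list says that GR was found at the site after CORT and does not say whether GR was there after washout. The paper reports that only a small fraction of the number of GR sites remained after washout.

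A GRE near the summit was also more common among kept peaks. It lay under 41.4% of kept and 29.1% of lost MR peaks, against 8.30% of windows 1000 bp to either side, which is the share of such matches away from the summits. Peaks with a GRE were kept in 31.5% of cases and peaks without in 21.1%, with an odds ratio within bands of 1.55 (1.41 to 1.69) and a higher share in 10 of 10 bands. The share kept followed the closeness of the match. It was 56.5% with no mismatch (13 of 23 peaks), 43.8% with 1 mismatch, 35.7% with 2, 29.0% with 3, 22.9% with 4, 18.9% with 5 and 17.6% with 6, while the bands alone gave 32.2% for no mismatch and 20.0% for 6. The interval for no mismatch, 36.8% to 74.4%, holds the share for 1 mismatch and lies just above that for 2.

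Among the 23 peaks with a GRE free of mismatches, the 13 kept ones had a −log10 p of 5.20 to 31.4 with a median of 14.9. The 10 lost ones ranged from 4.97 to 10.6 with a median of 9.09, so the groups overlapped. GR CORT peaks lay at 8 of the 13 and at 6 of the 10. The strongest kept one lay in an intron of *P4ha2*, a subunit of prolyl hydroxylase for collagen, with a −log10 p of 31.4 after CORT and 22.6 after washout. The lost ones included introns of *Rbfox2* and *Rbfox3*, RNA-binding regulators of splicing in neurons, the former with 10.6.

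GRE and GR were each linked to keeping a peak where the other was held fixed. Peaks with both were kept in 47.7% of cases (1107 of 2321). With GR and no GRE the share was 35.8% (1641 of 4588), with a GRE and no GR 15.5% (363 of 2347), and with neither 8.26% (436 of 5279). Within bands the odds ratio for GR was 2.34 (2.00 to 2.74) among peaks with a GRE and 3.33 (2.94 to 3.78) among peaks without. The odds ratio for a GRE was 1.43 (1.27 to 1.60) with GR and 1.93 (1.65 to 2.25) without. In numbers, most kept peaks had no GRE by this measure, 2077 against 1470, as did most of all MR CORT peaks, 9867 against 4668. The count depends on the measure, since the paper's motif search, in wider windows, found a GRE at most MR sites.

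Kept peaks were wider. Their median width was 110 bp (107 to 113) and that of lost peaks 55 bp (54 to 55). The share kept was 6.69% for peaks of 34 to 38 bp, 12.3% for 39 to 53 bp, 17.2% for 54 to 74 bp, 28.0% for 75 to 114 bp and 58.5% for 115 to 801 bp. Strong peaks are wide, so peaks were split at the median width of their own band, and then 31.6% of the wider and 17.4% of the narrower were kept. The odds ratio was 2.79 (2.55 to 3.06), with a higher share in 10 of 10 bands. A wide peak is easier to overlap. When a peak counted as kept only with a washout summit within 50 bp of its own, the odds ratio was 1.84 (1.67 to 2.02). Classing peaks by band and by width together left an odds ratio of 2.20 (1.99 to 2.43) for GR and of 1.60 (1.46 to 1.76) for a GRE.

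**Figure D2:**
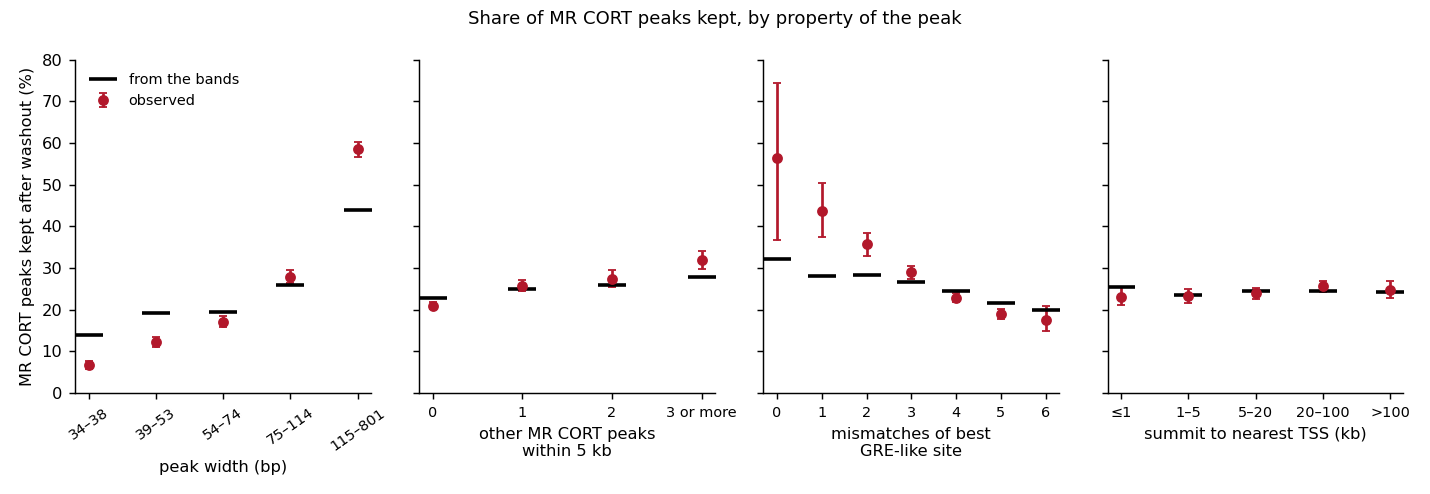
Percent of MR CORT peaks kept after washout by peak width, by number of other MR CORT peaks within 5 kb, by mismatches of the best GRE-like site within 50 bp of the summit, and by distance of the summit to the nearest TSS (red points, 95% Wilson intervals), with the percent that the shares of the bands of −log10 p alone would give (black dashes). The share rises with width from 6.69% to 58.5% and falls with mismatches from 56.5% to 17.6%, and across distances to a TSS it stays between 23.1% and 25.6%.

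Border pairs, which MACE calls from the positions where the exonuclease stopped on both strands, gave a second reading of the same CORT library. Of the 1501 CORT peaks that held an MR border pair, 60.5% were kept, against 20.3% of the rest. Within bands the odds ratio was 2.46 (2.15 to 2.80).

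Position relative to genes separated kept from lost peaks little. The share kept was 23.1% (21.0% to 25.4%) within 1 kb of the transcription start site (TSS) of a protein-coding gene, 23.4% at 1 to 5 kb, 24.0% at 5 to 20 kb, 25.6% at 20 to 100 kb and 24.8% beyond 100 kb. The median distance was 17635 bp (16728 to 18850) for kept and 15852 bp (15300 to 16571) for lost peaks. Within bands, the odds of being kept were lower within 1 kb of a TSS (odds ratio 0.836, 0.721 to 0.969), with a higher share in 2 of 10 bands. That interval reached past 1 when kept peaks had to share summits within 50 bp (0.920, 0.789 to 1.07), when the overlap had to cover 0.5 of the shorter peak (0.866), when only washout peaks with a −log10 q of at least 5 counted (0.878), and when width was matched too (0.866). Peaks in or within 5 kb of a gene were kept in 23.9% and intergenic peaks in 25.5% of cases, and the interval of their odds ratio held 1 (0.955, 0.872 to 1.05). The share was 22.4% in coding exons, 21.9% in UTRs, 23.9% in introns and 24.0% outside but within 5 kb of genes. It ranged from 18.9% on chromosome X to 27.5% on chromosome 19, leaving out chromosome Y with 5 peaks.

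MR CORT peaks often came in groups, and peaks with neighbors were kept a little more often. A peak with no other MR CORT peak within 5 kb was kept in 21.0% of cases (1498 of 7129). The share was 25.8% with 1 neighbor, 27.5% with 2, and 31.8% with 3 or more. Within bands the odds ratio for any neighbor was 1.29 (1.18 to 1.41), with a higher share in 9 of 10 bands. The fate of a peak also went with that of the peak next to it. Of the peaks whose nearest neighbor was kept, 34.3% were kept themselves, against 25.1% where it was lost (odds ratio 1.68, 1.48 to 1.91, with a higher share in 10 of 10 bands). The shares were 38.3% against 26.3% for neighbors under 500 bp apart, where the bands gave 26.5% and 26.0%. At 500 bp to 1 kb they were 33.2% (27.6% to 39.3%) against 26.2% (22.9% to 29.9%). At 1 to 2 kb they were 29.5% (23.8% to 36.0%) against 22.0% (18.9% to 25.5%), so in both of these classes the intervals overlapped. At 2 to 5 kb they were 21.9% against 22.4%. Among the washout peaks, 75 overlapped 2 CORT peaks and 1 overlapped at least 3. With summits required to lie within 50 bp, both intervals held 1: the odds ratio was 1.08 (0.985 to 1.18) for having a neighbor and 1.10 (0.954 to 1.28) for the fate of the nearest one.

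Chains of peaks less than 5 kb apart numbered 2796, with 7479 peaks in all and up to 13 in a chain. No peak was kept in 1349 of them, all peaks in 165, and some but not all in 1282. A chain of 2 peaks retained at least 1 of them in 43.5% of cases and a chain of 4 or more in 76.5%. A longer chain has more peaks that could be kept, so this share rises with their number alone. No share that separate peaks would give was set beside it. Where a chain was thinned, its strongest peak was kept in 1013 of 1282 chains (79.0%). These chains were picked for holding both kept and lost peaks, and 626 of them had only 2 peaks. Strong peaks were kept more often among all CORT peaks, and no share from the bands was set beside the 79.0%.

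**Figure D3:**
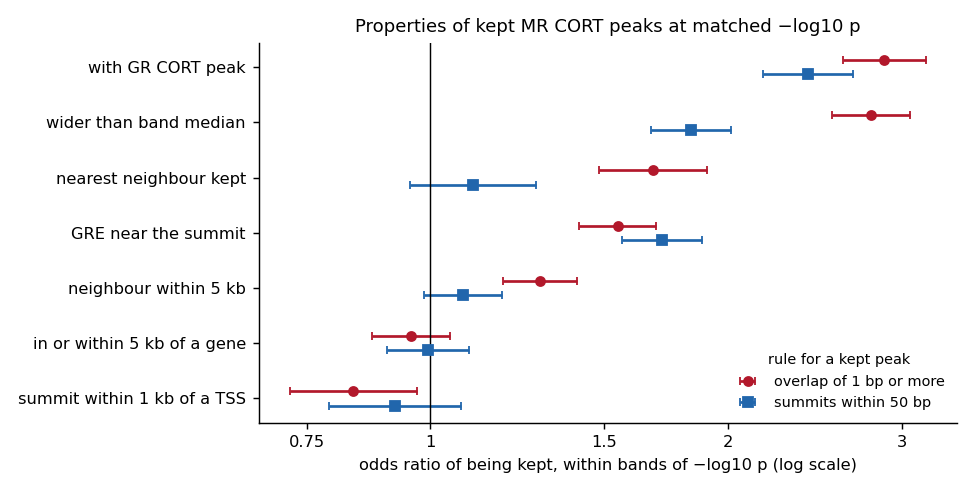
Mantel-Haenszel odds ratios of being kept within bands of −log10 p (x axis, log scale), with 95% intervals that cover counting error only, for kept peaks defined by an overlap of 1 bp or more (red circles) or by summits within 50 bp (blue squares). Overlap with GR, width and a GRE lie above 1 under both rules, and the intervals for neighbors, for genes and for a TSS hold 1 under the summit rule.

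The distance between the CORT and washout summits was measured at kept peaks. The rule requires the peaks to overlap, which by itself holds the distance to about the width of the peaks, so its size is a description. The summit of the washout peak was a median of 17 bp (16 to 18) from the CORT summit. It lay within 10 bp at 34.4% of kept peaks, within 50 bp at 79.1% and within 100 bp at 94.1%, and on the same base at 74 peaks. The median signed shift was 0 bp, and the largest shift was 608 bp. Shifts were smaller at strong peaks, with a median of 12 bp (11 to 13) in band 10 against 23 bp (20 to 28) in band 5. They were also smaller at peaks with a GRE, 14 bp (13 to 16), than at those without, 20 bp (18 to 21). This split by GRE was not matched for band. With and without GR the median was 17 bp. Where a CORT peak was met by more than 1 washout peak (167 peaks), the median was 35 bp.

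Near a GRE both summits lay close to it. Taking the GRE near the midpoint of both summits, which favors neither, the CORT summit was a median of 13 bp (12 to 14) and the washout summit 14 bp (13 to 16) from its center at 1475 kept peaks. The washout summit was the nearer at 669 and the CORT summit at 758 of them. Over all bands, the GRE lay a median of 12 bp (11 to 12) from the CORT summit at kept peaks and 14 bp (13 to 15) at lost ones. Kept peaks were stronger, and these distances were not matched for −log10 p. Matches of the kind found away from summits were not taken out either. Among the 3254 CORT and washout peaks that overlapped 1 to 1, the median width was 107 bp after CORT and 77.5 bp after washout, and 65.0% were narrower after washout. Width goes with −log10 p, which grows with depth, so these widths were not compared as amounts of binding. The order of strength was held in part, with a Spearman correlation of −log10 p of 0.416 and a Pearson correlation of 0.540 across these pairs, which are peaks of 1 pair of libraries.

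**Figure D4:**
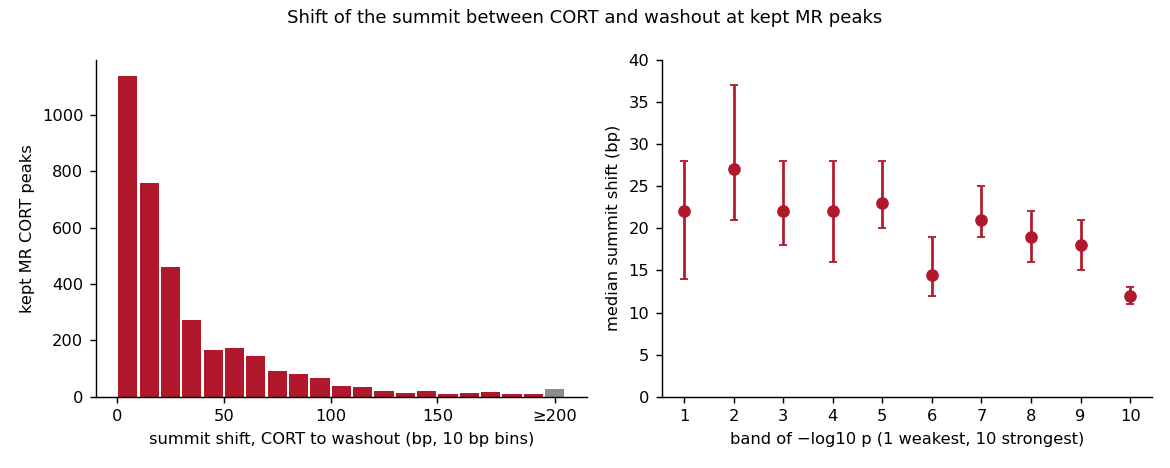
Left: number of kept MR CORT peaks by distance between CORT and washout summit, in bins of 10 bp, with the last, gray bar holding all 28 peaks at 200 bp or more. Right: median distance in each band of −log10 p with exact binomial intervals. Most kept peaks shift by under 50 bp, and the median is lowest, 12 bp, in the strongest band.

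By the rule no washout peak overlaps a lost peak, so few washout summits can lie close to it. One lay within 100 bp of 176 of the 11041 lost summits (1.59%), within 500 bp of 11.5% and within 5 kb of 23.2%.

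*Fkbp5* encodes a co-chaperone that lowers hormone binding by GR and is itself induced by glucocorticoids. It had 15 MR CORT peaks, of which 9 were kept, against 6.12 from the shares of their bands. Its strongest peak, 4.616 kb inside the gene from the annotated start (chr17:28512535-28513174), had a −log10 p of 49.7 after CORT and 43.6 after washout. The peaks 660 bp and 4613 bp upstream of the start had 19.3 and 19.6 after CORT and 29.3 and 14.7 after washout. The intronic peak with the GRE free of mismatches, 97.159 kb inside the gene, had 15.1 after CORT and 25.8 after washout. The lost peaks were not all weak, as the peak 32.577 kb inside the gene had 19.6 after CORT and none after washout, and the one at 72.475 kb had 15.1. Kept peaks ranged from 6.28 to 49.7 and lost ones from 6.54 to 19.6, so the ranges overlapped.

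*Ddc*, which encodes the decarboxylase that makes dopamine and serotonin, kept 2 of 8 peaks, its strongest ones. The peak 53.509 kb inside the gene had a −log10 p of 51.7 after CORT and 47.3 after washout, and the peak at 32.796 kb had 19.6 and 19.3. The 6 lost peaks of *Ddc* ranged from 5.31 to 9.17, below both. A washout summit lay 59 bp from the summit of a lost peak with 9.17, and another lay 78 bp from that of a lost peak with 5.31. The peaks themselves did not overlap. *Syt2*, a calcium sensor of synaptic vesicle release, kept 1 of 5 peaks, again the strongest, with 24.5 after CORT and 19.3 after washout, while its lost peaks ranged from 5.31 to 13.4. *Dusp4*, a phosphatase of MAP kinases, kept its strongest peak of 3, with 29.6 after CORT and 11.2 after washout. A lost peak of 16.5 lay less than 1 kb from it, and its summit was 170 bp from the nearest washout summit. *Sgk1*, a kinase induced by both receptors and known for sodium transport, kept 1 of 2 peaks, which had 9.34 and 8.71 and lay downstream of the gene. In these genes other than *Fkbp5* every kept peak was stronger than every lost peak of the same gene.

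**Figure D5:**
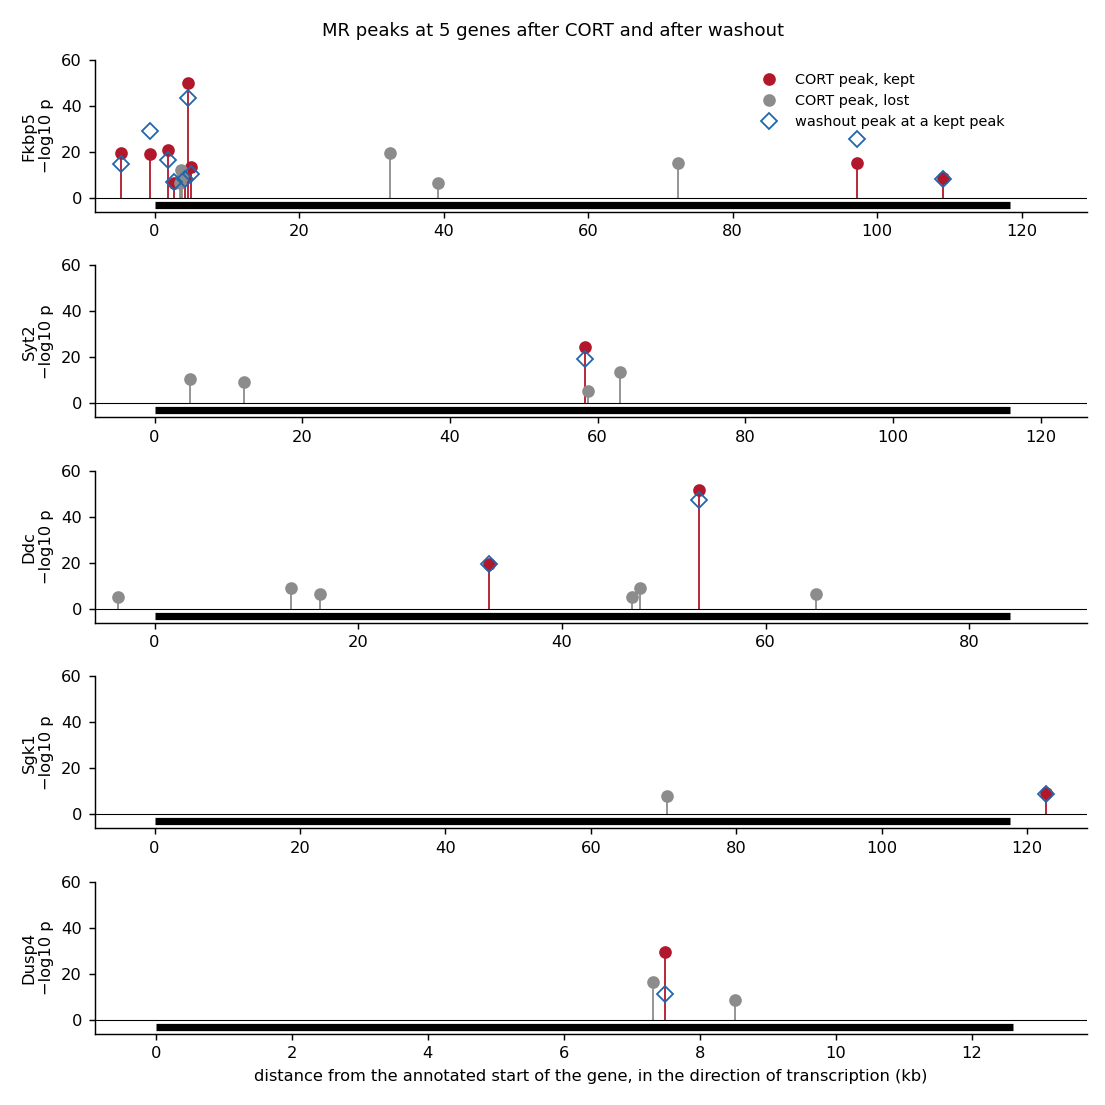
MR peaks at *Fkbp5*, *Syt2*, *Ddc*, *Sgk1* and *Dusp4* by distance from the annotated start of the gene (x axis, kb, gene body as black bar) and −log10 p (y axis), with kept CORT peaks in red, lost ones in gray and the washout peak at a kept peak as a blue diamond. *Fkbp5* kept 9 of 15 peaks, and in the other genes the strongest peak was kept and the weaker ones were lost, apart from the second kept peak of *Ddc*.

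In all, 4498 protein-coding genes had an MR CORT peak in them or within 5 kb. No peak was kept at 2844 of them, part of the peaks at 1117, and all at 537. Of the 2401 genes with a single peak 19.9% kept it, and of the 513 genes with at least 5 peaks 82.1% (78.5% to 85.1%) kept at least 1. Genes with more peaks have more that could be kept, and 26.5% of the peaks at genes with at least 5 were kept.

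Among those 513 genes, the genes that kept more peaks than their bands gave were led by *Gse1*, a coiled-coil protein linked to repressor complexes, with 37 of 89 kept against 27.8. *Magi1*, a scaffold at cell junctions, kept 7 of 12 against 2.41. *Gfap*, the intermediate filament of astrocytes, kept 5 of 7 against 1.23, and *Atoh8*, a bHLH transcription factor, 5 of 7 against 1.26. *Slit3*, a secreted axon guidance ligand, kept 17 of 52 against 13.2. At *Gfap* and *Atoh8* no peak was in the strongest band. The list also held *Gm21738* (9 of 10 against 3.53) and the adjoining loci *Gm10800* and *Gm10801*, which shared the same 6 peaks, all kept, against 1.53. At these loci 8 of 10 and 4 of 6 peaks lay at an MR vehicle peak or at a border pair of an input library, so they had signal without CORT or without immunoprecipitation. Of the other genes picked for keeping more or fewer peaks than their bands gave, only *Gm20388* had such peaks, 2 of its 315.

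The genes that kept fewer peaks than their bands gave were led by *Gm20388*, a locus of 4435 kb that spans many other genes, with 88 of 315 kept against 95.8. It overlaps *Gse1*, which led the genes that kept more, and *Galnt2*, so peaks at those genes were counted at *Gm20388* as well. *Btbd9*, a BTB domain protein, kept 2 of 21 against 6.66, and *Vwa5b1*, a protein of unsettled function, 1 of 18 against 4.38. *Rere*, a nuclear receptor corepressor, kept 3 of 25 against 5.80, and *Stox2*, a winged helix protein, 4 of 21 against 6.26. *Galnt2*, an enzyme that starts O-glycosylation, kept 1 of 10 against 3.41, and lost its strongest peak, with a −log10 p of 21.2. *Stra6*, the cell surface receptor for retinol-binding protein, lost all 9 of its peaks, the strongest with 19.6, and *Trio*, a guanine nucleotide exchange factor of axon growth, lost all 9, the strongest with 17.8. These genes were picked from 513 for the size of the difference, so the differences describe them and support nothing further.

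The strongest kept peaks lay in introns of *Gm20388* (−log10 p of 60.2 after CORT and 57.0 after washout), of *Agfg2*, an Arf GTPase-activating protein (55.5 and 41.0), of *Pmm1*, a phosphomannomutase (54.7 and 23.6), and of the collagen gene *Col4a2* (54.4 and 56.6), and in an intergenic stretch of chromosome 10 (53.3 and 47.6). All 5 overlapped a GR CORT peak, as did 92.6% of all peaks in band 10, to which they belong. The strongest lost peaks were the 5 exceptions among the 100 strongest. They lay in introns of *Scml4*, a Polycomb-group protein (45.7, rank 20 of all CORT peaks), *Disc1*, a scaffold protein of neuronal development (42.2, rank 31), and *Padi2*, a peptidylarginine deiminase (38.0), near *Tlx3*, a homeobox factor of sensory neurons (36.7), and 30 bp from the TSS of *Lcn2*, a secreted iron-siderophore carrier induced by glucocorticoids in many tissues (38.0). These 5, also in band 10, overlapped a GR CORT peak too, and they were 114 to 365 bp wide.

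In none of the 9 gene lists described next did the share kept differ from what the bands of its peaks gave by more than counting error, since each 95% interval held the share from the bands. Genes known to be induced by glucocorticoids kept the share farthest above that of all MR CORT peaks, apart from the chaperones, whose kept peaks all belong to *Fkbp5*. In this list 13 of 24 genes had an MR CORT peak and 9 of those kept at least 1, with 19 of 36 peaks kept (52.8%, 37.0% to 68.0%), where the bands gave 38.6%. *Fkbp5* supplied 15 of the 36 peaks. Without it 10 of 21 were kept (47.6%, 28.3% to 67.6%), against 37.0% from the bands, which that interval holds. *Zbtb16*, a zinc finger factor, kept 3 of 4 peaks, the strongest with 21.5 after CORT and 25.8 after washout. *Nfkbia*, the inhibitor of NF-κB, kept the strongest of 3, with 44.5 and 42.5, in an intron 209 bp from a TSS.

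Genes for the synthesis and handling of catecholamines kept 12 of 36 peaks (33.3%, 20.2% to 49.7%), against 24.8% from their bands. *Th*, tyrosine hydroxylase, the first enzyme of the pathway, kept 3 of 5 peaks, the strongest with 26.2 after CORT and 24.2 after washout. *Cyb561*, a cytochrome of chromaffin granules, kept 3 of 7 peaks, with 10.8, 7.76 and 6.56 after CORT. Transcription factors of sympathetic neuroblasts kept 5 of 12 peaks (41.7%, 19.3% to 68.0%), against 24.4% from their bands. Among them the homeobox factor *Meis1* kept 1 of 2 and *Meis2* 0 of 2.

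Synaptotagmins, the calcium sensors of vesicle release, kept 6 of 35 peaks (17.1%, 8.10% to 32.7%), against 23.9% from their bands. The kept peaks belonged to 3 of 11 genes, *Syt1* (2 of 8), *Syt9* (3 of 9) and *Syt2* (1 of 5). The kept *Syt1* peak with 24.5 after CORT had 38.1 after washout, while the other 8 genes kept none. Axon guidance genes kept 39 of 145 peaks (26.9%), against 24.2% from their bands, with 14 of 26 genes keeping at least 1. *Efna5*, an ephrin ligand, kept 4 of 9 and *Slit1* 2 of 9.

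Circadian clock genes kept 5 of 17 peaks (29.4%, 13.3% to 53.1%), against 18.9% from their bands. Both peaks of *Per2* were kept, with 14.9 and 6.23 after CORT and 7.69 and 8.28 after washout, as was 1 of 3 at *Cry2*. Genes of sodium transport, the classical field of MR in the kidney, kept 6 of 21 peaks (28.6%), against 21.1% from their bands. The epithelial sodium channel subunits *Scnn1b* and *Scnn1a* kept 2 of 6 and 0 of 3, and *Sgk3* 1 of 2. Phosphatases of MAP kinases kept 3 of 11 peaks (27.3%, 9.75% to 56.6%), against 34.9% from their bands, with *Dusp6* keeping 1 of 2 and *Dusp2* 0 of 2. Of the receptor chaperones and co-chaperones only *Fkbp5* and *St13* had a peak, and the single *St13* peak, with 9.17, was lost.

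Signal in control libraries touched few CORT peaks. An MR vehicle peak, or a border pair of the CORT or washout input or of the vehicle input, lay at 116 of them, and 49.1% (40.2% to 58.1%) of these were kept, against 37.3% from their bands. Without them 24.2% of CORT peaks were kept.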

How the data were processed

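ChIP-nexus reads of 3 replicates per condition were filtered by quality, aligned to GRCm38 (mm10) with Bowtie2, stripped of PCR duplicates by random barcode and filtered on mapping quality by the authors. After pooling the replicates, the authors ran MACS2 2.1.1.20160309 with input as control and a false discovery rate of 0.05, and MACE for border pairs. A score in the deposited peak lists equals −log10 q times 10 without its decimals, and the deposited −log10 values are its −log10 p and −log10 q, the latter under a heading for fold enrichment. Each deposited border pair carries the p-value MACE gave it, which was not used to choose pairs. The lists hold no read counts, so the depth behind each list is unknown here. The text of the paper gives a range of mapped reads over receptors and treatments, so depths differed, but not the value of each. Depth decides which weak peaks pass, which the intervals do not cover.

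Peaks in coding exons of *Nr3c1* and *Nr3c2* were left out. CORT peaks were split into 10 bands of −log10 p, with tied values in 1 band, so bands differ in size. Shares have 95% Wilson intervals, odds ratios over bands are Mantel-Haenszel estimates with Robins-Breslow-Greenland intervals, and medians have exact binomial intervals. The share "from the bands" is what a class would keep if each of its peaks had the share of its band. Genes and TSSs are those of protein-coding genes in GENCODE M21. Peaks inside a gene or within 5 kb were assigned to it. Sequence was read from the RefSeq copy of GRCm38.p6 with pysam 0.24.0. A GRE is a pair of inverted AGAACA hexamers 3 bases apart, searched on both strands at once since it is its own reverse complement, with at most 3 mismatches in 12 fixed positions, starting within 50 bp of a summit. Scripts ran in Python 3.11.15 (scipy 1.17.1, pandas 2.3.3, numpy 2.4.6, matplotlib 3.10.9).

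The genes named are *Fkbp5*, *Syt2*, *Ddc*, *Sgk1* and *Dusp4*, the 8 genes furthest above and the 8 furthest below the number kept that their bands gave among genes with at least 5 peaks, the genes at the 5 strongest kept and 5 strongest lost peaks, and the 3 genes with most peaks in each of 9 lists, some of which are not reported here. Sites are printed for the strongest kept and lost peaks that have a GRE, which adds *Prag1*, and the genes at GREs free of mismatches (*P4ha2*, *Fndc7*, *Rbfox2* and *Rbfox3*) were chosen after their values were seen. The members, lists and measures were chosen with earlier results of these data known. On simulated peaks made with an odds ratio of 2 the median estimate was 1.99, and 94.5% of 200 intervals held the true value. The simulated peaks were independent of each other within bands, unlike neighboring peaks here, so this share does not carry over to the intervals above. The GR peaks after vehicle and washout were not used here. The alternatives changed the rule for a kept peak, the thresholds of both lists, the bands, the peaks left out, the gene set, the distance of a neighbor and the GRE match.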

Additional observations from a re-analysis of the deposited data

Results flagged for a closer look

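Border pairs of the MR washout library, which entered no comparison above, lay in 80 of the 11041 lost CORT peaks (0.725%, 95% Wilson interval 0.583% to 0.901%), above the 39 lost peaks (0.353%, 0.259% to 0.482%) that held a border pair of the washout input. Among the 3567 kept peaks the counts were 430 (12.1%) and 36 (1.01%). What flagged the first value is signal in a kind of file that did not decide whether a peak was kept, above the share for the input control. A library with more border pairs meets more peaks by itself, and these counts were not scaled for the pairs or depth of either library. The calls of MACE and of MACS2 come from the same reads, and the cause of the difference was not tested.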

How the results depend on the processing

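No paired analysis was possible because the replicates were combined before peaks were called, and for the same reason no replicate could be left out. The share of MR CORT peaks kept was 19.7% with summits within 50 bp, 22.7% with an overlap of 0.5 of the shorter peak, 36.7% among CORT peaks with a −log10 q of at least 5, 14.7% against washout peaks with a −log10 q of at least 5, and 27.0% for the strongest peak of each chain. The odds ratio for a summit within 1 kb of a TSS no longer had an interval below 1 with summits within 50 bp (0.920), with an overlap of 0.5 of the shorter peak (0.866), with the stricter washout list (0.878), with bands crossed with 3 classes of width (0.866), and with 20 bands crossed with width (0.860), an alternative added after seeing the data. With summits within 50 bp, the interval of the odds ratio held 1 for having a neighbor (1.08) and for the fate of the nearest neighbor (1.10). The median summit shift was 14 bp against the stricter washout list and 17 to 18 bp or 16 bp otherwise. No odds ratio crossed to the other side of 1. Those for GR ranged from 2.15 to 3.08 over 11 alternatives, those for a GRE from 1.34 to 1.84 over 13, and those for width from 1.84 to 3.05 over 9. The 1 list per treatment and its unknown depth limit all of these.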

Other observations

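Some MR peaks were found only after washout. Of the 4855 washout peaks, 3666 (75.5%) overlapped a CORT peak and 1189 (24.5%) did not. The latter were weaker, with a median −log10 p of 7.69 against 10.4, and narrower, with a median width of 53 bp against 79 bp. A GRE lay within 50 bp of the summit of 31.9% of them and of 39.8% of the others, and a GR CORT peak overlapped 27.8% and 77.6%. A CORT summit lay within 500 bp of 33.1% of the washout peaks that overlapped no CORT peak. Within 1 kb of a TSS lay 9.17% of them and 9.30% of the others. A border pair of the MR CORT library lay in 24 of them (2.02%) and in 846 of the others (23.1%). These shares were not matched for −log10 p.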
